A study of Capra hircus with 6 samples.

Results

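Glutathione metabolism genes are the enzymes that make, oxidize, reduce, conjugate, and break down glutathione, the most abundant thiol of animal cells. They were taken from the deposited gene table as the rows whose pathway annotation holds the KEGG entry Glutathione metabolism. The entry covers 55 of the 15944 genes listed. The ribonucleotide reductase genes RRM1 and RRM2 were left out by the rule, so 53 genes were examined. The rule uses the annotation and not the expression values, but it was set with earlier results of these data known. RNA-seq was performed on wild type dermal papilla cells from secondary hair follicles (SHF-DPCs) of cashmere goats (Capra hircus), kept in primary culture. According to the methods, the skin came from adult goats 3 years of age, and the cells had been passaged several times before use. The ATRA-treated group (3 libraries) received all-trans retinoic acid, the vitamin A metabolite that binds retinoic acid receptors, at 100 µM for 24 h. The control group (3 libraries) was cultured without ATRA. The methods also name separate animals as the source of the cells. The labels do not say whether a control library and an ATRA library of the same number share an animal.

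Glutathione is built from glutamate, cysteine, and glycine in a pair of steps, of which the first, catalysed by glutamate-cysteine ligase, sets the rate. Peroxidases oxidize it while they reduce hydrogen peroxide and lipid hydroperoxides, a reductase restores it with NADPH, and transferases couple it to reactive compounds. Several of these genes are textbook targets of NFE2L2 (NRF2), the transcription factor of the oxidative stress response. In skin, the same enzymes limit oxidative damage to follicle cells.

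Libraries held 35532339 to 38012771 counts, and the labels name 1 batch for all of them. Mesenchymal markers were abundant, but PROM1, which encodes CD133, a marker the study used, had at most 1 count in a library. ACTA2, which encodes α-SMA, the study's other marker, had 220329, 200752, and 206944 counts in the control libraries. In the ATRA libraries ACTA2 had 397, 332, and 347 counts. All 9 mesenchymal markers were lower with ATRA, and their summed level went from between 85641 and 86789 normalized CPM (a CPM value is a count relative to the scaled library total) in the control libraries to between 4787 and 5113 in the ATRA libraries. Of 16 dermal papilla markers, 9 were tested, 7 were lower, and 1 was higher. The 15 listed summed to 8536 to 9467 CPM in control libraries, most of it ACTA2, and to 218 to 235 CPM in ATRA libraries. Markers of other cells, where listed, were scarce. Of 7 leukocyte markers, 4 were listed. They summed to 9.24 to 12.9 CPM in control libraries and 41.3 to 44.2 CPM in ATRA libraries. CD14 and CD68 held nearly all of it, and PTPRC was not listed, so its level is unknown. The 7 endothelial markers, of which 5 were listed, summed to 0.903 to 1.24 and then 6.19 to 9.16 CPM. PECAM1 held most of that rise, with 0 counts in every control library and 242, 340, and 206 in the ATRA libraries. TEK was also higher (log₂FC 0.87), while VWF had a log₂FC of 0.06. KDR, which was not tested, had 5, 6, and 10 counts in the control libraries and 2, 1, and 0 in the ATRA libraries. CDH5 had at most 1 count in a library, and CLDN5 and EMCN were not listed. The 10 keratinocyte markers, of which 7 were listed, summed to 3.11 to 4.98 and then 5.40 to 6.02 CPM. Most of it was KRT10 (log₂FC 0.82). KRT14 and KRT5, which were not tested, had fewer counts with ATRA. KRT14 went from 20, 14, and 10 counts to 3, 0, and 0, and KRT5 from 2, 7, and 3 to 0, 0, and 0. TP63, CDH1, and DSP were at or under 3 counts. The 7 melanocyte markers, of which 3 were listed, summed to 16.1 to 17.6 and then 32.2 to 39.0 CPM. Most of it was MITF (log₂FC 1.33), while PMEL was lower (-0.90). TYR, DCT, MLANA, and SOX10 were not listed. The part of these marker changes in the results below was not tested, and in bulk RNA fewer cells of a type and less RNA per cell cannot be told apart.

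The pathway did not move as a block. Of the 53 genes, 42 had enough reads to be tested, 18 rose and 17 fell with ATRA, with adjusted p-values under 0.05 (edgeR's quasi-likelihood test, two-sided, Benjamini-Hochberg over all 12588 genes tested), and 7 did not pass. Among all genes tested the shares were 40.9% higher and 38.7% lower, against 42.9% and 40.5% of the tested glutathione genes. With a log₂ fold change (log₂FC) above 1 in size and an unadjusted p under 0.05, 7 were higher and 5 lower, or 16.7% and 11.9%, where all genes gave 13.7% and 17.3%. Every ATRA library lay above every control library for 16 genes and below for 18, against 41.2% and 39% of all genes. The median log₂FC was 0.08 for the tested glutathione genes and 0.04 for all genes. These counts are near the background in both directions, so they describe no shift of the pathway as a whole.

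Scaling sets where zero lies in these data. The main scaling was TMM, which assumes that most genes do not change. With library size only, the median log₂FC of all genes became 0.52, and the split of the tested glutathione genes became 26 higher and 7 lower. The plot of both scalings shows that the glutathione genes moved with that shift. The ratio of a pair of genes within a library does not depend on scaling and is given below where enzymes of a pathway step moved apart.

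**Figure D1:**
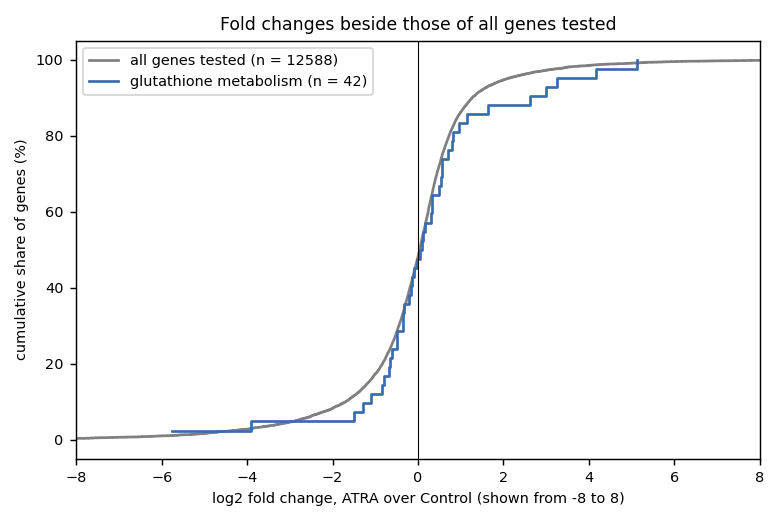
Cumulative share of genes (y axis, %) at or below each log₂FC of ATRA over Control (x axis, cropped at both ends) for the 42 glutathione metabolism genes tested (blue) and all 12588 genes tested (grey). The lines cross zero at about the same height, with medians of 0.08 and 0.04.

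**Figure D2:**
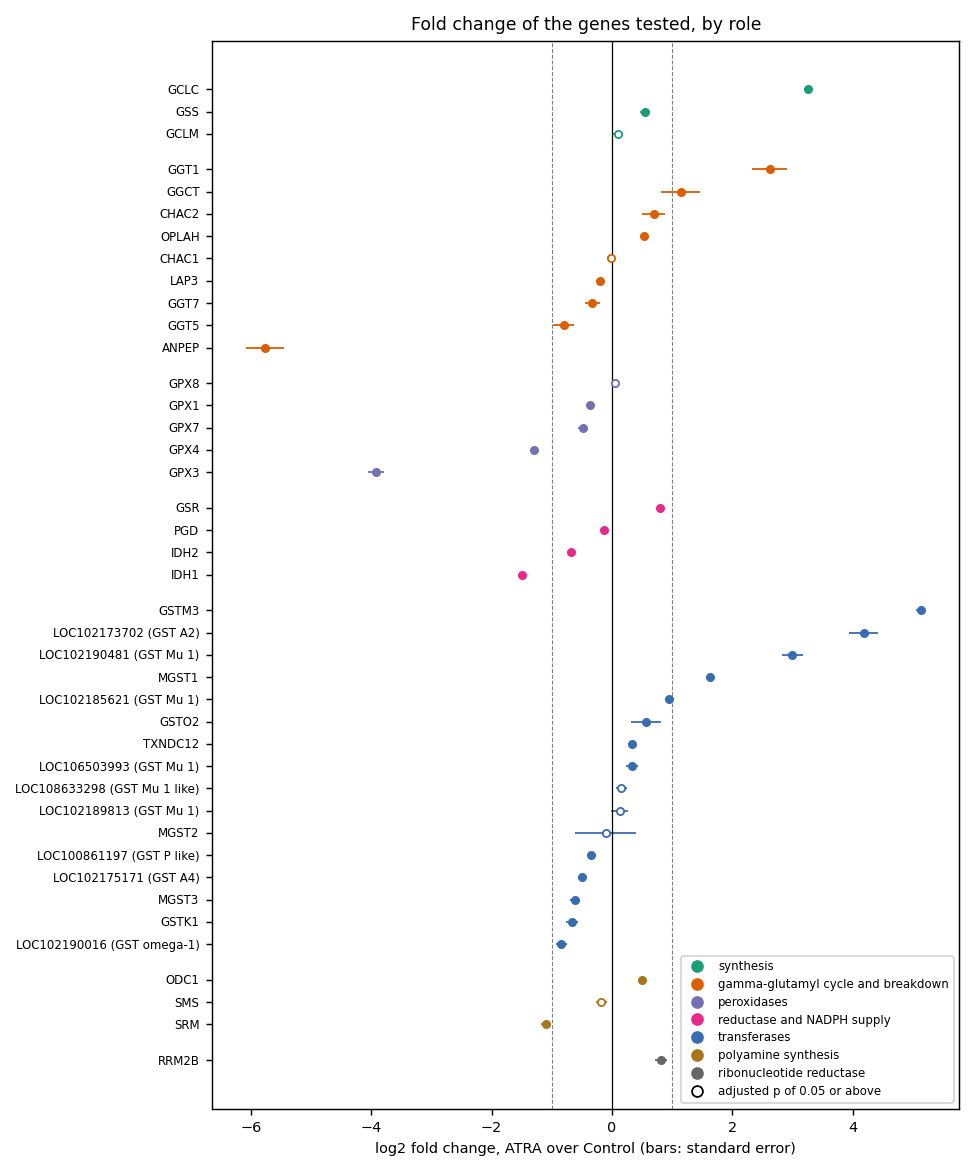
The log₂FC of each gene tested and reported here (x axis) with its standard error, grouped by role and colored by it. Open circles did not reach an adjusted p under 0.05, and dashed lines mark a log₂FC of -1 and 1. GSTM3 lies farthest to the right at 5.13 and ANPEP farthest to the left at -5.76.

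Of the 3 synthesis genes, 2 were higher with ATRA, none was lower, and 1 did not pass, where all genes tested gave 40.9% higher and 38.7% lower. GCLC encodes the catalytic subunit of glutamate-cysteine ligase, the rate-limiting enzyme. Its normalized CPM was 12.98, 14.9, and 14.8 in the control libraries and 131, 143, and 134 in the ATRA libraries. The groups lay far apart, and the rise was 9.57-fold (log₂FC 3.26, standard error 0.0743, adjusted p = 1.00e-17). GCLC held rank 300 from the top among the log₂FC of all 12588 genes tested.

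GCLM encodes the modifier subunit, which lowers the substrate need of GCLC. Its CPM was 52.7, 63.2, and 60.9 in the control libraries and 60.5, 71.6, and 57.4 in the ATRA libraries. These ranges overlapped, with a log₂FC of 0.10 (standard error 0.0848, adjusted p = 0.283). With library size only, GCLM passed the test at a log₂FC of 0.58. The counts of GCLC per count of GCLM were 0.246, 0.235, and 0.243 in the control libraries and 2.16, 2.004, and 2.34 in the ATRA libraries, a ratio 8.97 times higher (two-sided exact permutation p = 0.1, and a design of 3 against 3 can give no lower p). Thus the subunits moved apart within each library, whatever the scaling. This ratio and the 5 others below were chosen after the values were seen, and each has the same p of 0.1, also after adjustment over the 6.

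GSS, glutathione synthetase, carries out the final step. Its CPM was 20.3, 19.8, and 18.7 in the control libraries and 31.7, 26.2, and 28.3 in the ATRA libraries. All ATRA libraries were higher, with a 1.47-fold rise (log₂FC 0.55, standard error 0.0852, adjusted p = 1.05e-05).

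**Figure D3:**
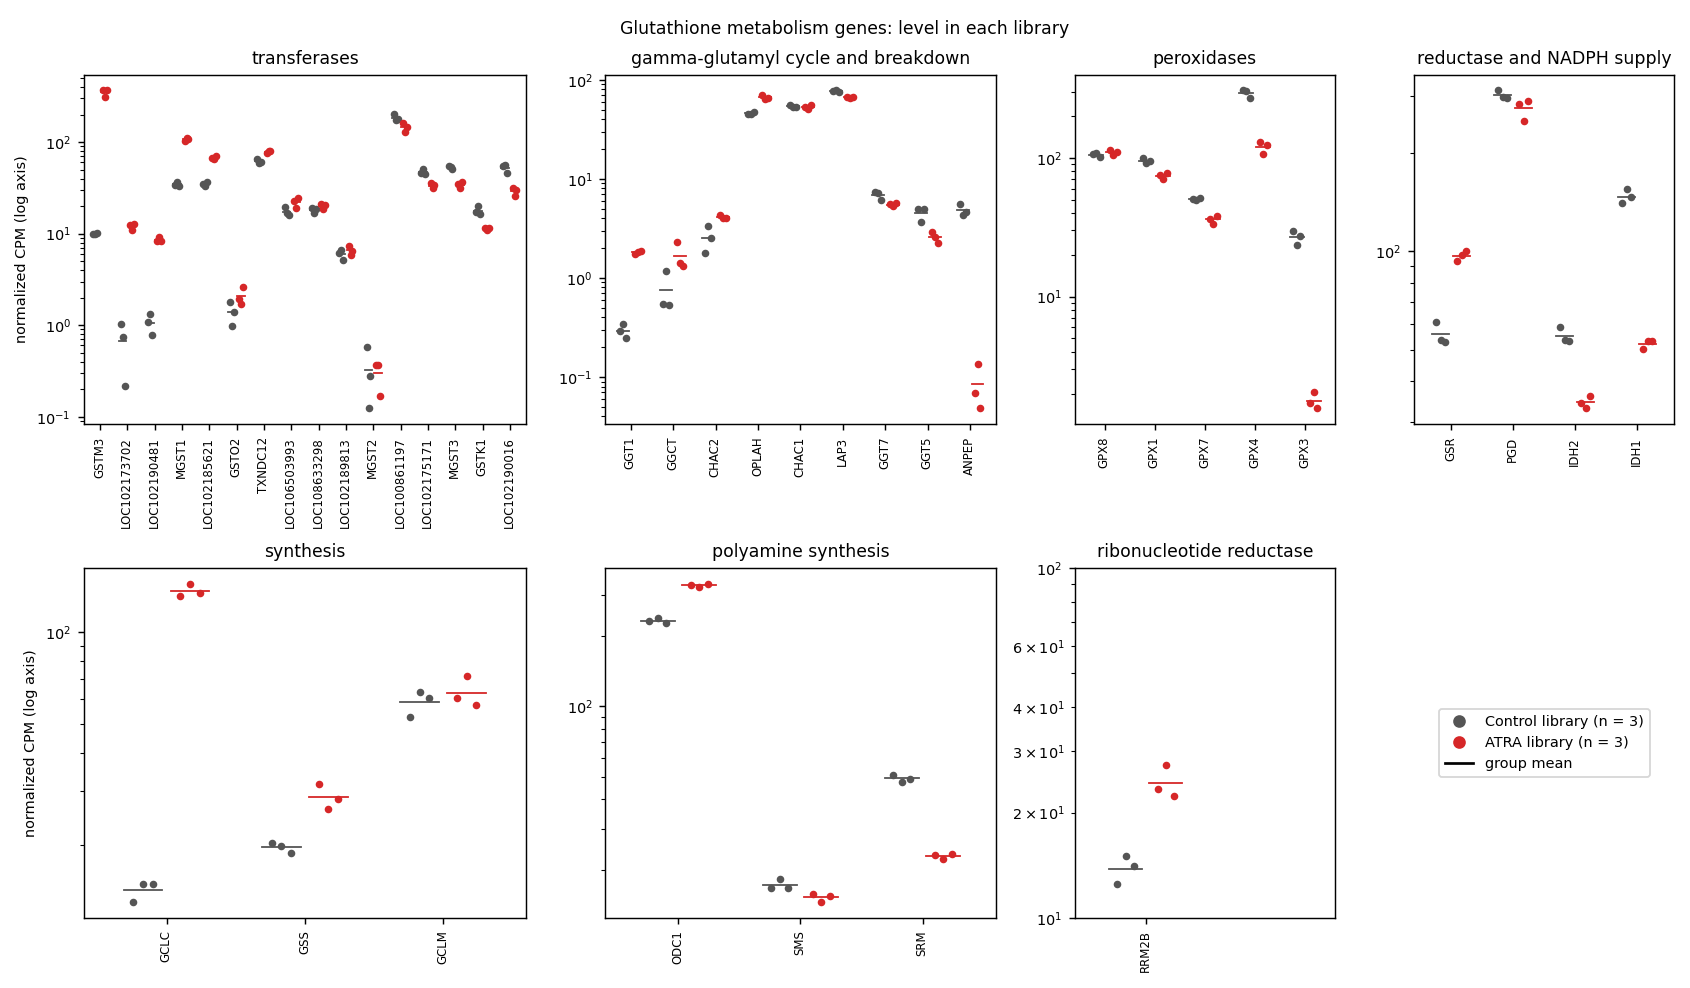
Normalized CPM (y axis, log scale) of the genes tested and reported here in each control library (grey points) and ATRA library (red points), with group means as lines and a panel per role. The y axes differ between panels, and levels should be compared between groups for a gene, not between genes. GCLC, GSTM3, GPX3, IDH1, and ANPEP show groups set far apart, while GCLM, CHAC1, and GPX8 show groups that overlap.

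Glutathione transferases were the most numerous role. Of 24 transferase and related genes, 16 were tested, 8 were higher, 5 were lower, and 3 did not pass. The shares were 50.0% and 31.25%, where all genes tested gave 40.9% and 38.7%. The other 8 had too few reads to test. All 4 transferase genes with a log₂FC above 1 in size were higher: GSTM3, LOC102173702, LOC102190481, and MGST1. They are 25.0% of the transferases tested, where 13.7% of all genes tested were higher and 17.3% lower past that size.

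GSTM3 (glutathione S-transferase mu 3 in the table) had the highest log₂FC of the pathway. Its CPM was 9.92, 9.99, and 10.1 in the control libraries and 367, 315, and 367 in the ATRA libraries. The rise was 34.9-fold (log₂FC 5.13, standard error 0.0793, adjusted p = 5.65e-20), at rank 107 from the top among all genes tested. Cytosolic transferases of this class detoxify electrophiles by joining them to glutathione.

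The table lists 7 mu-class genes, which stand side by side in the reference annotation with no other protein-coding gene between them. In that order, the log₂FC was 0.95 for LOC102185621, 0.13 for LOC102189813, 0.33 for LOC106503993, 0.16 for LOC108633298, 3.00 for LOC102190481, and 5.13 for GSTM3, while LOC100861222 had 1 count in all. The genes with the highest log₂FC, LOC102190481 and GSTM3, stood next to each other at the end of the row. LOC102190481 had a CPM of 1.10, 1.33, and 0.778 in the control libraries and 8.21, 9.20, and 8.24 in the ATRA libraries (7.99-fold, standard error 0.175 on the log2 scale, adjusted p = 1.54e-11). LOC102185621 went from 34.8 ± 1.83 to 67.4 ± 2.39 CPM (SD, n = 3 each), just short of a log₂FC of 1 (adjusted p = 2.60e-10). LOC102189813 and LOC108633298 did not pass the test (adjusted p = 0.398 and 0.102).

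How reads were divided among these genes of 1 class in counting is not given in the sources used here, how alike their sequences are was not measured, and in the annotation LOC102185621 overlaps both LOC100861222 and LOC102189813, so the values of single copies are uncertain. The 7 genes were therefore summed, which was decided once the data had been seen. The sum was 90.03, 85.1, and 87.3 CPM in the control libraries and 494, 433, and 497 CPM in the ATRA libraries (log₂FC 2.44, standard error 0.0650, adjusted p = 1.10e-16). GSTM3 held 11.02%, 11.7%, and 11.6% of the mu-class counts in the control libraries and 74.4%, 72.7%, and 73.8% in the ATRA libraries. The mu class as a whole was higher, and GSTM3 went from a minor to the major share of its reads. The 8 tested neighbours within 5 genes of the cluster on either side had a median log₂FC of 0.03, with a range from -0.81 to 2.34, and 3 were higher and 2 lower.

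**Figure D4:**
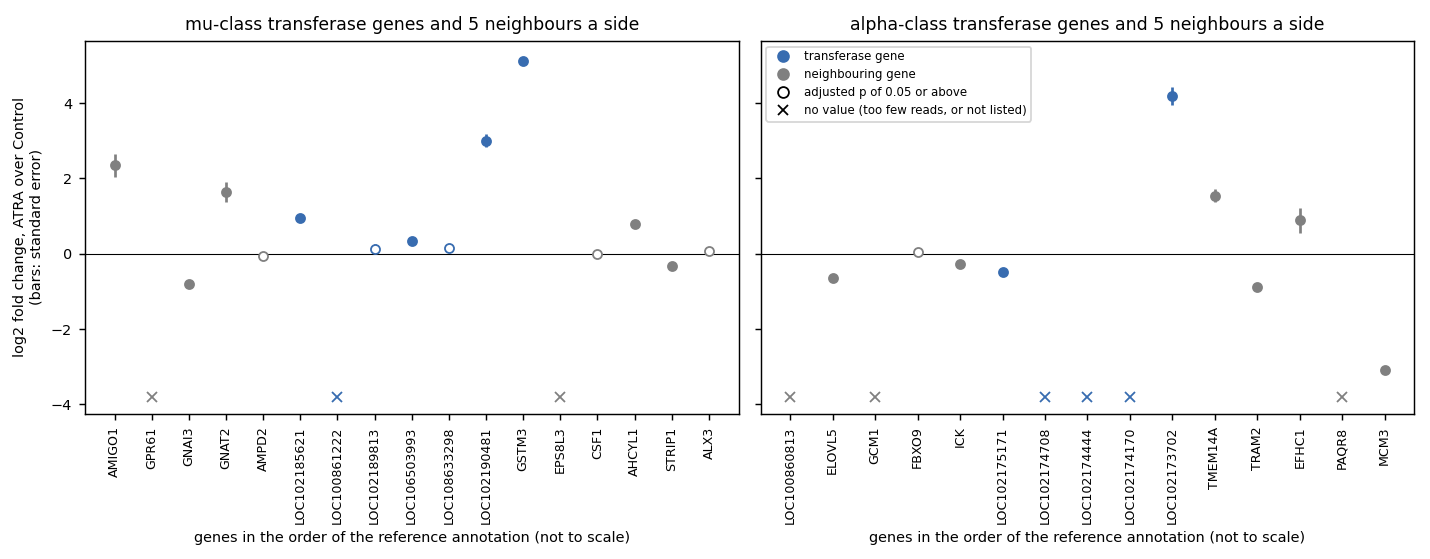
The log₂FC (y axis, bars for the standard error) of the mu-class (left) and alpha-class (right) transferase genes in the order of the reference annotation, with 5 neighbouring genes on each side in grey (x axis, not to scale). Crosses at the bottom mark genes with no value. In both rows the transferase gene with the highest log₂FC is the last, at 5.13 and 4.18, but only 2 of the 5 alpha genes have a value.

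The alpha class had a similar layout with fewer genes expressed. Of 5 genes in a row, LOC102174708, LOC102174444, and LOC102174170 had 1 count each over all libraries. LOC102173702, described as glutathione S-transferase A2, is the last of the row. It had 32, 24, and 7 counts in the control libraries and 539, 482, and 523 in the ATRA libraries, or 1.03, 0.742, and 0.218 CPM against 12.5, 10.9, and 12.6 CPM. The control libraries were spread, but all were far below the ATRA libraries (18.1-fold, log₂FC 4.18, standard error 0.239, adjusted p = 2.52e-11). LOC102175171 (glutathione S-transferase A4), at the other end, fell from 47.1 ± 2.87 to 33.5 ± 2.15 CPM (SD, n = 3 each, adjusted p = 7.81e-06), although with library size only its log₂FC was -0.0149 and did not pass. The sum of the 5 alpha genes was 44.8 to 51.0 CPM in the control libraries and 42.1 to 47.9 CPM in the ATRA libraries, with no difference past the threshold (adjusted p = 0.388).

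MGST1 encodes a membrane-bound transferase of the endoplasmic reticulum and mitochondria. Its CPM was 34.3, 37.1, and 32.8 in the control libraries and 103, 112, and 108 in the ATRA libraries. The groups were clearly apart (3.10-fold, log₂FC 1.63, standard error 0.0668, adjusted p = 6.70e-14). Its relative MGST3 went the other way, from 52.8 ± 2.25 to 34.4 ± 2.499 CPM (SD, n = 3 each, log₂FC -0.62, adjusted p = 3.23e-07), though not past the threshold with library size only. MGST2 was near the limit of detection, with 4 to 18 counts per library (adjusted p = 0.856).

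The remaining transferases had smaller changes. LOC100861197, whose symbol in the table is GSTP1, the pi-class enzyme, went from 185 ± 14.6 to 146 ± 16.0 CPM (SD, n = 3 each, log₂FC -0.35, adjusted p = 0.000429), which became 0.13 when only library size was used. LOC102190016 (omega-1) fell with a log₂FC of -0.84 and GSTK1, the mitochondrial and peroxisomal kappa enzyme, with -0.66, of which GSTK1 no longer passed with library size only. TXNDC12, a thioredoxin-like protein of the endoplasmic reticulum, rose with a log₂FC of 0.33. GSTO2 had an adjusted p of 0.0453 at 32 to 107 counts per library, its groups overlapped, and 7 of the 15 alternatives run for it lost the call.

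With TMM scaling, glutathione peroxidases contained no gene that was higher with ATRA, and 4 of 5 were lower. Among all genes tested, 40.9% were higher and 38.7% lower. With library size only, GPX1 and GPX7 lost the call and GPX8 passed as higher. GPX3, the secreted peroxidase, had a CPM of 29.7, 23.5, and 27.5 in the control libraries and 1.71, 2.04, and 1.57 in the ATRA libraries. Its fall was 15.1-fold (log₂FC -3.92, standard error 0.129, adjusted p = 2.51e-15). GPX4 reduces lipid hydroperoxides within membranes and is the enzyme whose loss triggers ferroptosis. It had 306, 305, and 271 CPM in the control libraries and 130, 106, and 124 in the ATRA libraries, so that the lowest control library was still above the highest ATRA library by a wide margin (2.45-fold lower, log₂FC -1.29, standard error 0.0736, adjusted p = 1.66e-11).

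GPX1, the main cytosolic peroxidase, and GPX7, a peroxidase of the endoplasmic reticulum, had lower levels by smaller margins. GPX1 had 100, 91.2, and 94.3 CPM in the control libraries and 75.1, 70.9, and 77.3 in the ATRA libraries (log₂FC -0.36, adjusted p = 3.95e-05). GPX7 had 50.4, 49.9, and 51.2 CPM in the control libraries and 36.5, 33.5, and 38.2 in the ATRA libraries (log₂FC -0.49, adjusted p = 4.17e-06). With library size only, GPX1 turned to 0.12 and GPX7 to -0.0087, and neither passed, so the lower level of these genes rests on the scaling. GPX8, also of the endoplasmic reticulum, had 107, 109, and 101 CPM and then 113, 105, and 110 CPM, ranges that overlapped (log₂FC 0.06, adjusted p = 0.386), but with library size only GPX8 passed at 0.53.

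Independent of scaling, the peroxidases changed unequally. Counts of GPX4 per count of GPX1 were 3.05, 3.34, and 2.87 in the control libraries and 1.74, 1.49, and 1.61 in the ATRA libraries. Counts of GPX3 per count of GPX1 were 0.295, 0.258, and 0.292, and then 0.0228, 0.0288, and 0.0203. GPX4 therefore made up 51.3% of the peroxidase counts on average without ATRA (49.7% to 52.7%) and 35.1% with it (33.3% to 36.5%).

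The reductase and the enzymes that supply its NADPH were split. GSR, glutathione-disulfide reductase, had 60.7, 53.4, and 52.8 CPM in the control libraries and 93.4, 97.4, and 100 in the ATRA libraries (1.74-fold, log₂FC 0.80, standard error 0.0669, adjusted p = 2.99e-09). Every ATRA library was higher. Per count of GPX1, GSR had 0.605, 0.586, and 0.560 counts in the control libraries and 1.24, 1.37, and 1.30 in the ATRA libraries.

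PGD, an NADPH-forming enzyme of the pentose phosphate pathway, had 311, 297, and 296 CPM and then 283, 251, and 288 CPM. Its adjusted p of 0.0481 was lost in 7 of 16 alternatives, and its log₂FC of -0.14 turned to 0.34 with library size only.

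The isocitrate dehydrogenases make NADPH outside the pentose phosphate pathway, and both were lower. IDH1, the cytosolic and peroxisomal form, had 140, 155, and 147 CPM in the control libraries and 50.1, 53.1, and 53.1 in the ATRA libraries (2.82-fold lower, log₂FC -1.497, standard error 0.0610, adjusted p = 6.38e-14). IDH2, the mitochondrial form, had 58.7, 53.4, and 53.0 CPM and then 34.4, 33.0, and 36.0 CPM (log₂FC -0.67, standard error 0.0701, adjusted p = 6.49e-08). Both passed in all 16 alternatives. Counts of IDH1 per count of IDH2 were 2.39, 2.90, and 2.76 in the control libraries and 1.46, 1.61, and 1.47 in the ATRA libraries. The ranges did not overlap, so IDH1 fell more than IDH2 whatever the scaling.

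Enzymes that take glutathione apart moved in both directions. Of 11 genes, 9 were tested, 4 were higher, 4 lower, and 1 did not pass. The shares were 44.4% in each direction, near the 40.9% and 38.7% of all genes tested. ANPEP encodes a surface aminopeptidase that cleaves the cysteinyl-glycine dipeptide. It had 172, 140, and 148 counts in the control libraries and 3, 6, and 2 in the ATRA libraries, or 5.54, 4.33, and 4.61 CPM against 0.0694, 0.136, and 0.0483 CPM. Its log₂FC was -5.76 (standard error 0.311, adjusted p = 4.48e-12), a size that depends on the few counts left. With log2(CPM + 1) values, as used for R's t.test function, the difference was -2.42, still past the threshold.

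GGT1, the γ-glutamyltransferase that starts the breakdown of glutathione outside the cell, was at a low level. It had 9, 11, and 8 counts in the control libraries and 75, 81, and 78 in the ATRA libraries (log₂FC 2.62, standard error 0.292, adjusted p = 1.67e-07). Its relative GGT5 went from 4.96, 3.68, and 4.92 CPM to 2.92, 2.58, and 2.25 CPM (log₂FC -0.80, standard error 0.173, adjusted p = 0.000359), a call lost with library size only (adjusted p = 0.0909). GGT7 had a log₂FC of -0.33 (adjusted p = 0.0239), a call lost in 6 of 16 alternatives, with a turned sign under library size only (0.15). GGT6 had at most 2 counts in a library.

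Inside the cell, CHAC1 and CHAC2 cleave glutathione itself. CHAC1, which is also a target of the ATF4 stress response, had 55.8, 53.3, and 53.0 CPM in the control libraries and 53.6, 50.6, and 55.4 in the ATRA libraries, with a log₂FC of -0.02 (adjusted p = 0.753) that was 0.46 with library size only (adjusted p = 4.37e-06). CHAC2 had 1.77, 3.37, and 2.52 CPM and then 4.35, 4.04, and 4.04 CPM (log₂FC 0.69, adjusted p = 0.00333), a call that R's t.test function lost (adjusted p = 0.122). GGCT, which releases 5-oxoproline from γ-glutamyl amino acids, had 17, 38, and 17 counts in the control libraries and 99, 62, and 54 in the ATRA libraries (log₂FC 1.14, standard error 0.324, adjusted p = 0.00362). The second control library held more counts than the others, and R's t.test function lost the call (adjusted p = 0.0799). OPLAH, which turns 5-oxoproline back into glutamate, rose from 45.9 ± 1.38 to 66.5 ± 3.202 CPM (SD, n = 3 each, log₂FC 0.53, adjusted p = 5.11e-07). LAP3, a cytosolic leucine aminopeptidase, had a log₂FC of -0.20 (adjusted p = 0.00417) that turned to 0.28 with library size only.

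The polyamine enzymes of the pathway moved apart along its steps. ODC1, ornithine decarboxylase, which opens polyamine synthesis, had 232, 239, and 227 CPM in the control libraries and 330, 324, and 333 in the ATRA libraries (1.41-fold, log₂FC 0.50, standard error 0.0533, adjusted p = 9.44e-08). SRM, spermidine synthase, the step after it, had 50.9, 47.6, and 49.0 CPM and then 23.2, 22.1, and 23.4 CPM (2.15-fold lower, log₂FC -1.10, standard error 0.0702, adjusted p = 5.50e-11). Counts of ODC1 per count of SRM rose from 4.74 ± 0.252 to 14.4 ± 0.232 (SD, n = 3 each). SMS, spermine synthase, went from 17.2 ± 0.855 to 15.2 ± 0.612 CPM, which did not pass (log₂FC -0.18, adjusted p = 0.0701). RRM2B, the p53-inducible small subunit of ribonucleotide reductase, had 12.5, 14.99, and 14.04 CPM and then 23.3, 27.4, and 22.4 CPM (1.76-fold, log₂FC 0.82, standard error 0.0978, adjusted p = 4.37e-07).

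The 11 genes without enough reads were 8 transferase copies, GGT6, NAT8, and LOC102182731. NAT8, which acetylates cysteine conjugates, was at 0 counts without ATRA in all 3 libraries and at 18, 6, and 2 counts with it. LOC102182731, described as an ornithine decarboxylase, had 5, 3, and 1 counts and then 12, 6, and 14. LOC102184041, another pi-class copy, had 2 counts in each ATRA library and none in the controls. At these depths, differences were not tested.

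As a share of all counts, the 53 genes together made up 0.209%, 0.205%, and 0.199% of the control libraries and 0.328%, 0.311%, and 0.323% of the ATRA libraries. Without GSTM3 the shares were 0.204% ± 0.00483 and 0.280% ± 0.00590 (SD, n = 3 each). These shares, unlike normalized CPM, also rise when abundant genes of other kinds fall. In normalized CPM, synthesis genes together went from 92.8 ± 6.16 to 228 ± 11.4 and transferases from 542 ± 24.4 to 929 ± 54.7. Peroxidases went from 572 ± 24.8 to 342 ± 21.4 (SD, n = 3 each for all of these sums). Single genes held most of each change. By group means, GCLC went from 14.2 to 136 CPM, GSTM3 from 9.998 to 349, and GPX4 from 294 to 120. Of the 16 transferases tested, 8 were higher and 5 lower, so their sum does not describe a shared rise.

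**Figure D5:**
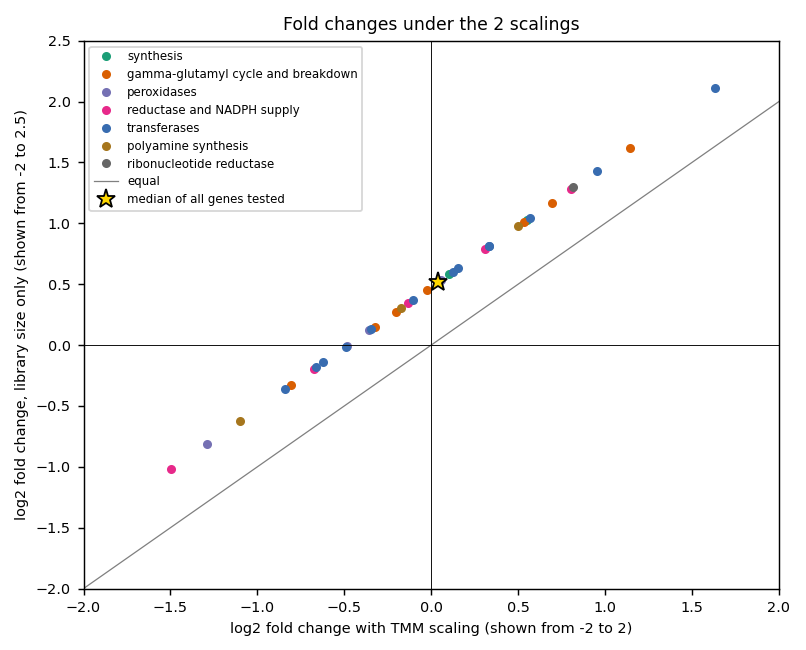
The log₂FC of the glutathione metabolism genes with TMM scaling (x axis, shown from -2 to 2) and with library size only (y axis, shown from -2 to 2.5), colored by role, where genes with larger changes lie outside the axes. The points run parallel to the line of equality and above it, as does the median of all genes (star, 0.04 and 0.52).

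Most of the genes are also annotated to other pathways, of which a few are given here. Of 4 genes shared with ferroptosis, GCLC and GSS were higher, GPX4 was lower, and GCLM did not pass. Of 6 shared with arachidonic acid metabolism, GGT1 was higher and GPX1, GPX3, GPX7, and GGT5 were lower. Of 5 shared with cysteine and methionine metabolism, GCLC and GSS were higher, SRM was lower, and GCLM and SMS did not pass. The 23 shared with the metabolism of xenobiotics by cytochrome P450 are the transferases without TXNDC12, of which 15 were tested, 7 were higher, and 5 lower. These groups are small, and all genes tested gave 40.9% higher and 38.7% lower.

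A further 24 genes that supply, export, or use glutathione, or that act on polyamines and on NFE2L2, lie outside the annotated pathway. Of these, 22 were listed and tested, 10 were higher and 8 lower, with a median log₂FC of 0.07. The shares were 45.5% and 36.4%, near the 40.9% and 38.7% of all genes tested, so the counts describe no shift of this list. SLC7A11, the cystine importer that feeds synthesis, rose from 26.1 ± 0.902 to 70.5 ± 15.2 CPM, and ABCC1 and ABCC4, which export glutathione and its conjugates, rose from 48.2 ± 3.54 to 144 ± 10.3 and from 14.6 ± 0.489 to 163 ± 15.2 CPM (SD, n = 3 each, log₂FC 1.44, 1.58, and 3.48). CBS and CTH, the transsulfuration enzymes that make cysteine from methionine, fell with a log₂FC of -1.45 and -1.11. Relative to the median of all genes, the transcripts of the importer and of the internal route thus moved in opposite directions. GLRX, a glutaredoxin that uses glutathione to reduce proteins, fell with -1.02. SAT1, which acetylates polyamines, and PAOX, which oxidizes them, rose with 3.41 and 1.24. KEAP1, the repressor of NFE2L2, had a log₂FC of 1.41. NFE2L2 and BACH1 are named here with their values already known. NFE2L2 had a log₂FC of 0.57, while BACH1, a repressor of the same sites, had 0.01 (adjusted p = 0.874).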

How the data were processed

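Per the paper's methods, the authors selected mRNA by its poly(A) tail and cleaned reads with fastp and TrimGalore. The submitters' processing notes name HISAT2, featureCounts, and DESeq2. The genome build, annotation, and strand setting are not given in the sources used here. The authors deposited raw counts per gene, not normalized, in 6 columns, all of which were used. No file used here holds sequences or exon lengths, so none are shown and levels are not compared between genes. All 53 genes matched the RefSeq table (assembly ARS1.2) by symbol, which was used for gene order only.

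Genes passing edgeR's expression filter (minimum count 10, minimum total 15) were scaled by TMM and tested with the robust quasi-likelihood test over all 6 libraries, with no covariate. A prior count of 0.125 enters the log₂FC, whose size divided by the root of the F statistic gives the standard error. Genes with an adjusted p under 0.05 and an absolute log₂FC above 1, and a fixed list of pathway enzymes, were to be given in full. The other genes given with full values, among them NAT8, OPLAH, CHAC2, LOC102185621, MGST3, and LOC100861197, were picked with their values in view. Members and lists were chosen with earlier results of these data known. Also tried were DESeq2, R's t.test function (the method of the paper) on log2(CPM + 1), RLE, upper-quartile, and library-size scaling, no filter, a filter at CPM 1 in 3 libraries, a prior count of 2, a replicate block, and each library left out. The sum of transferase copies was added after seeing the data. One gene counted among those tested is not reported here by name. The edgeR test was also run on simulated counts in which few genes changed, with rises and falls drawn alike. That setting does not cover data in which most genes tested pass, as they did here. The p-values measure the spread between the 3 libraries of each group, and how much of that spread lies between animals was not tested. The paper's methods name cells of 3 individual animals, but the labels do not say whether the groups share animals. Versions were R 4.3.3, edgeR 4.0.16, DESeq2 1.42.0, and Python 3.11.15.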

Additional observations from a re-analysis of the deposited data

How the results depend on the processing

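Over the alternatives in which each was run (16, or 15 for the transferase copies that were summed), 20 of the 35 called genes kept their sign and call, among them GCLC, GSTM3, LOC102173702, LOC102190481, MGST1, GGT1, GSR, GSS, GPX3, GPX4, IDH1, IDH2, ANPEP, ODC1, SRM, and RRM2B. With library size only, 14 pathway genes were higher and 3 lower past a log₂FC of 1, 7 were lower at an adjusted p under 0.05, the median log₂FC was 0.56, and 4 of the further glutathione genes were lower at an adjusted p under 0.05 and 0 past a log₂FC of 1 (edgeR). Under that scaling the log₂FC was 0.46 for CHAC1, 0.12 for GPX1, 0.34 for PGD, and 0.30 for SMS, all with a changed sign. The median was 0.15 with upper-quartile scaling, which turned CHAC1 to 0.054, and 0.11 with the filter at CPM 1. Leaving out each library moved it between 0.025 and 0.13. It moved CHAC1 between -0.062 and 0.0041 and GCLM between -0.0074 and 0.16, both turning sign only without ATRA replicate 2. With the transferase copies summed, 35 genes were left and the median turned to -0.10. DESeq2 gave 17 genes higher and 17 lower, and R's t.test function 13 and 15.

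With the replicate number as a block, 18 genes were higher, 17 were lower, and the median was 0.077. The correlation of deviations between libraries of the same number was 0.089, 0.030, and -0.076, so the numbers are not shown to pair the libraries. Control libraries 1 and 2 correlated best with the ATRA library of their own number, and control library 3 did not. Depth limits GGCT, GGT1, MGST2, GSTO2, and the 11 genes not tested.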
